A study of Mus musculus with 2 samples.

Results

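Integrins, their ICAM and VCAM ligands and the talin, kindlin and vinculin adaptors were read out in mouse splenic antigen-presenting cells (APCs). The 34 genes were chosen by name, and 33 of them had a named probe set, out of 18193 named genes on the array. Itgad was not analysed here. In the P25 group, APCs from the spleens of wild-type C57BL/6 mice, all female and 10 weeks old, were cultured overnight with P25 and with CD4+ T cells carrying the transgenic P25 T cell receptor. In the medium group, APCs of the same strain, sex and age were cultured with medium and the same T cells. P25 is a peptide from a protein that mycobacteria secrete, and this receptor recognises it on MHC class II, so the groups differ in whether the T cells met their antigen. The same T cells were thus in the cultures of both groups. APCs were enriched after the culture, and RNA pooled from 3 separate experiments went onto 1 Affymetrix array per group, so no replicate spread exists and no test was possible.

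Integrins are paired receptors of an α and a β chain that bind neighbouring cells or the extracellular matrix. Talin and kindlin bind the tail of the β chain inside the cell and switch the receptor to its high-affinity form, and vinculin ties talin to actin. On leukocytes, αLβ2 (LFA-1) binds ICAMs and holds the contact between T cell and APC, while α4β7 and α4β1 guide cells into tissue by binding MAdCAM-1 and VCAM-1. These genes are therefore part of how APCs stay in, and touch, the splenic tissue.

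Of the 34 genes, 25 were measured, that is, above a signal floor of 10.3 (the 40th percentile of both arrays) on at least 1 array. Another 8 were at the floor on both arrays. Of the measured genes, 22 were above the floor on both arrays, 2 with medium alone (Itga2 and Icam4) and 1 with P25 alone (Itga9). Only Icam1 was at least 2-fold higher with P25, which is 4.0% of the measured members, beside 9.43% of all 12897 measured genes. Itgam, Itga6, Itgb7, Itga4, Icam2 and Pecam1 were at least 2-fold lower, which is 24.0%, beside 7.22% of all measured genes. The other 18 measured members were within 2-fold. The median log2 ratio of P25 over medium was -0.50 for the 25 measured members and -0.49 for the 22 that exceeded the floor on each array, beside 0.02 for all measured genes.

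Since 1 array stood for each group, disagreement between probe sets of a gene was the only technical gauge. Over 5293 genes whose 2 brightest usable probe sets both exceeded the floor on each array, the difference between the log2 ratios within a pair had an SD of 0.58. The SD came to 0.68 for pairs whose dimmer probe set was below 100 in signal, and to 0.46 for the brighter pairs. This spread does not cover the cells or the culture. The scale of the arrays also matters. Over the measured probe sets the median signal was 64.3 with P25 against 71.1 with medium. Bringing the arrays to one such median, or to one level of the 18 hybridization spike-in probe sets, adds 0.15 to the log2 ratio of a gene above the floor on each array, and takes the median of all measured genes to 0.15 or 0.16. With the first of these, Itga4, Icam2 and Pecam1 came to -0.98, -0.89 and -0.88 and were within 2-fold, while Itgam, Itga6, Itgb7 and Icam1 stayed past it. With the arrays brought to one median over all probe sets other than controls (added once the values were known), the shift was 0.03 and Pecam1 alone of the 6 came within 2-fold, at -0.99. As a check of the APC label, the B cell genes Cd79a and Ms4a1 were bright, at 3655 and 5911 with P25 against 6119 and 5041 with medium, and the macrophage gene Csf1r had 173 with P25 against 514 with medium. Of 10 measured B cell markers Ms4a1 was the only 1 with a log2 ratio above 0, and their median was -0.68. Signals of different genes come from different probes and were not ranked against each other.

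**Figure D1:**
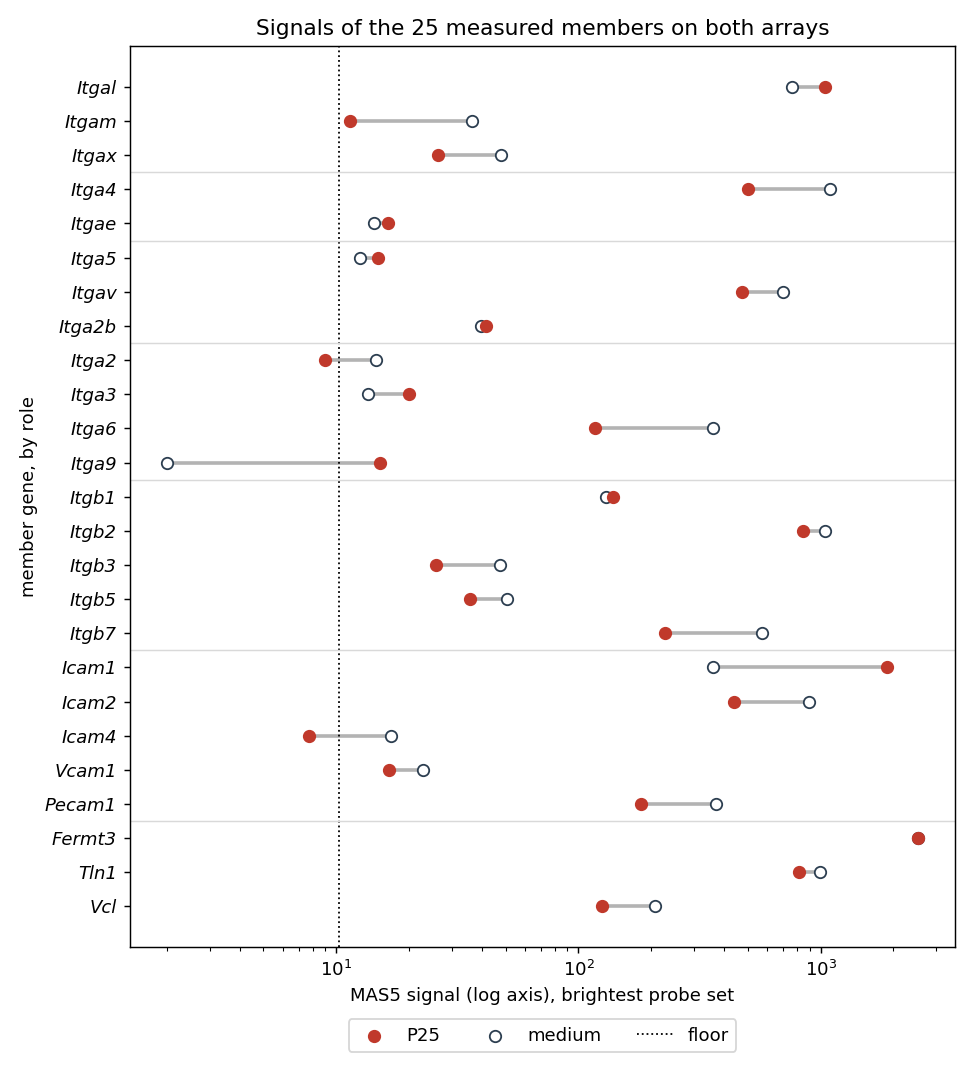
MAS5 signal (log axis) of the brightest probe set of the 25 measured members, in rows by role; filled red points are the P25 array, open points the medium array, and the dotted line is the floor of 10.3. Among the 22 members over the floor on each array, Icam1 has the widest gap on the higher side (1878 with P25 against 358 with medium), and Itgam, Itga6 and Itgb7 have the widest gaps on the lower side.

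The α chains that pair with β2 make the receptors typical of leukocytes. Itgal, the αL chain of LFA-1, had a signal of 1041 with P25 against 760.5 with medium, a log2 ratio of 0.45. Its other probe set gave 124 with P25 against 114 with medium, a log2 ratio of 0.12, so both were within 2-fold and on the higher side. Itgam, the αM chain of the complement receptor Mac-1 found on macrophages and neutrophils, had 11.4 with P25 against 36.5 with medium, and was 3.21-fold lower. Its P25 signal lay just above the floor, and with a pseudocount of 16 in place of the floor its log2 ratio was -0.94. Itgax, the αX chain (CD11c) used to mark dendritic cells, had 26.2 with P25 against 47.9 with medium, a log2 ratio of -0.87. Itgam and Itgax had 1 probe set each. Itgb2, the β chain common to all of these receptors, had 847 with P25 against 1039 with medium, a log2 ratio of -0.30. The β2 chain was therefore within 2-fold while its 3 measured α partners ran from -1.68 to 0.45. In such bulk RNA, fewer cells of a type and less RNA per cell cannot be told apart.

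Both chains of α4β7, a homing receptor of lymphocytes, were lower with P25. Itga4, the α4 chain, had 502 with P25 against 1093 with medium and was 2.18-fold lower. All 5 of its probe sets were above the floor on both arrays and all 5 ratios were on the lower side, with log2 ratios of -1.12, -0.91, -0.22, -0.72 and -0.38 in order of falling signal. Their median was -0.72, within 2-fold. Itgb7, the β7 chain, had 227 with P25 against 573 with medium and was 2.53-fold lower, from its single probe set. Its log2 ratio stayed between -1.34 and -1.19 under every other setting tried for it. Itgb1, the other β partner of α4, had 139 with P25 against 129.5 with medium, a log2 ratio of 0.10, and its other measured probe sets gave 0.38 and 0.22. The β1 and β7 chains thus differed in ratio although both pair with α4. Itgae, the αE chain that pairs with β7 to bind E-cadherin, was dim, at 16.3 with P25 against 14.3 with medium.

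Among the α chains that bind the RGD motif of matrix proteins, and the platelet chain αIIb, no gene was past 2-fold. Itgav, the αv chain, was bright, at 473.5 with P25 against 699.5 with medium, a log2 ratio of -0.56. Its second probe set was dim and gave 0.10, so the direction differed between its probe sets. Itga5, the α5 chain of the fibronectin receptor, had 14.8 with P25 against 12.5 with medium, just above the floor. Itga2b, which encodes αIIb, had 41.4 with P25 against 39.6 with medium, a log2 ratio of 0.07. Itga8 was at the floor on both arrays, at 5.5 with P25 against 9.9 with medium.

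Of the chains that bind laminin or collagen, Itga6 alone was past 2-fold. Itga6, the α6 chain of laminin receptors, had 117 with P25 against 360.1 with medium and was 3.08-fold lower. Its second probe set, with 119 with P25 against 177.5 with medium, had a log2 ratio of -0.58, lower as well but within 2-fold. Itga3, another laminin receptor chain, had 19.9 with P25 against 13.5 with medium, a log2 ratio of 0.55 from a dim probe set. Itga9, the α9 chain, was above the floor with P25 only, at 15.1 with P25 against 2.0 with medium, so its log2 ratio of 0.55 is a lower bound. Itga2, a collagen receptor chain, was above the floor with medium only, at 9.0 with P25 against 14.6 with medium. Itga1 and Itga7 were at the floor on both arrays.

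The remaining β chains were dim or at the floor. Itgb3, which pairs with αv and αIIb, had 25.7 with P25 against 47.2 with medium, a log2 ratio of -0.88, while its other measured probe set gave 0.24, a bound with the medium array at the floor. Itgb5, a further partner of αv, had 35.5 with P25 against 50.9 with medium, a log2 ratio of -0.52. That probe set has an ID ending in _x_at, which the manufacturer uses for probes that may bind other transcripts. Without such probe sets Itgb5 was above the floor with medium alone, with a log2 ratio of -1.28. Itgb4, Itgb6 and Itgb8 were at the floor on both arrays, with signals from 1.9 to 6.2. The β4 and β6 chains are known mainly from epithelia, and these signals cannot tell absence from a level too low for the probes.

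The ligands went both ways. Icam1, which binds LFA-1 and Mac-1, had 1878 with P25 against 358 with medium and was 5.25-fold higher, rank 74 from the highest of the 12897 measured genes. Its log2 ratio of 2.39 came from a single probe set and stayed between 2.34 and 2.54 under every other setting that gave it a value. Icam2, another LFA-1 ligand, carried by lymphocytes and endothelium, had 438 with P25 against 895.5 with medium and was 2.05-fold lower. These ligands of the same receptor were thus on opposite sides, and both were bright on each array. Icam4, known from red blood cells, was above the floor with medium only, at 7.7 with P25 against 16.8 with medium. Vcam1, the ligand of α4β1 carried by splenic macrophages and stroma, was dim, at 16.5 with P25 against 22.8 with medium, and its 3 probe sets ran from -0.46 to 0.27. Pecam1, a homophilic adhesion receptor of leukocytes, platelets and endothelium, had 181 with P25 against 368.5 with medium and was 2.03-fold lower. Icam2 and Pecam1 lay just past the threshold, and Itgb3 (-0.88) and Itgax (-0.87) were the nearest members on its inner side.

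Icam1, Icam4 and Icam5 are consecutive genes on chromosome 9 in the RefSeq table of GRCm38.p6, and they differed on these arrays. Icam1 was higher with P25, Icam4 was above the floor with medium alone, and Icam5 was at the floor on both arrays, with 2.5 with P25 against 6.8 with medium. To set the upstream sequence of the gene with the largest ratio at this floor beside that of its neighbour and of a gene that was lower, the 250 bases before the RefSeq start are shown for Icam1, Icam4 and Itga4, 5′ to 3′ on the strand of the gene. Capitals mark matches to 3 motifs, searched on both strands: TTCNNNGAA (GAS, the interferon-γ-activated sequence), GGAAATTCC (κB, bound by NF-κB) and GAAANNGAA (ISRE, the interferon-stimulated response element).
Icam1, chr9:21015690-21015939 (+): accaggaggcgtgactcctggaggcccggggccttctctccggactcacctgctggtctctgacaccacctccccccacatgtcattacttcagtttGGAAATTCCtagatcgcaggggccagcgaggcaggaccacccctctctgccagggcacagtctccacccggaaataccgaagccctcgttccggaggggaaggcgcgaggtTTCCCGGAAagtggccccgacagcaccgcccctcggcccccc
Icam4, chr9:21029182-21029431 (+): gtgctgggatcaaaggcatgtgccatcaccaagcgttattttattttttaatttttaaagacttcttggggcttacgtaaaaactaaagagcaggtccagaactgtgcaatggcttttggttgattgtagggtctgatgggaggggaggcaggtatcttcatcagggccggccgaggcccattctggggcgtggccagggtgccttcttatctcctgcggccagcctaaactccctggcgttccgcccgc
Itga4, chr2:79255176-79255425 (+): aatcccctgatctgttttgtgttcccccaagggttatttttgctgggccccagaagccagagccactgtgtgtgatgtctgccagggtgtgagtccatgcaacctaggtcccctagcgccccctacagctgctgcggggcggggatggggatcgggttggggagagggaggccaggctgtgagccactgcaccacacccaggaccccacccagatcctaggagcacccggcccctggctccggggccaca
The Icam1 window held GGAAATTCC from 153 to 145 bases before the start and a GAS match, TTCCCGGAA, from 42 to 34 bases before it, which do not overlap. None of the 3 motifs was in the windows of Icam4 and Itga4. Among all 32851 promoter windows of this length, 7.02% held a GAS match, 0.286% the κB letters and 7.13% an ISRE match. The table held 24 windows for 22 of the 34 genes. Among these, Icam1 alone held a GAS match and GGAAATTCC, and Itgav, Itga2b and Itga3 held an ISRE match. Unlike the other motifs, κB was searched as a single fixed sequence without variable positions. No rule is given here for the choice of these letters. Their match in Icam1 and their low share elsewhere therefore do not set Icam1 apart. Other forms of κB site were not looked for, so the κB share and the lack of a match elsewhere cover GGAAATTCC only. A match in letters describes the sequence and was not tested for binding.

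Of the measured adaptors, Fermt3 and Tln1 had ratios nearer to 0 on their brightest probe sets than Vcl. Fermt3, which encodes kindlin-3, the kindlin of blood cells, had 2524 with P25 against 2514 with medium, a log2 ratio of 0.01. Its other probe sets gave -0.11, 0.55 and -0.79, all within 2-fold. Tln1, the talin of blood cells, had 818 with P25 against 990.4 with medium, a log2 ratio of -0.28, and a dimmer probe set of it gave -1.08. Vcl, which encodes vinculin, had 126 with P25 against 208 with medium, a log2 ratio of -0.73. Fermt2, the kindlin of adherent tissues, and Tln2, the second talin gene, were at the floor on both arrays. None of the 3 measured adaptors was past 2-fold on its brightest probe set, although the β7, α4 and α6 chains were lower.

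Set side by side by receptor, the chains had like ratios in some pairs and unlike ratios in others. For αLβ2 the log2 ratios were 0.45 (Itgal) and -0.30 (Itgb2), both within 2-fold. For α4β7 they were -1.12 and -1.34, the only pair in which both chains were past 2-fold among the 12 pairs compared, though Itga4 came to -0.98 with one median over measured probe sets. For α6β1 they were -1.62 and 0.10, and for α5β1 they were 0.25 and 0.10. For αvβ3 and αvβ5 they were -0.56 with -0.88 and -0.56 with -0.52. Since chains are shared between receptors, these mRNA ratios do not give the number of receptors.

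**Figure D2:**
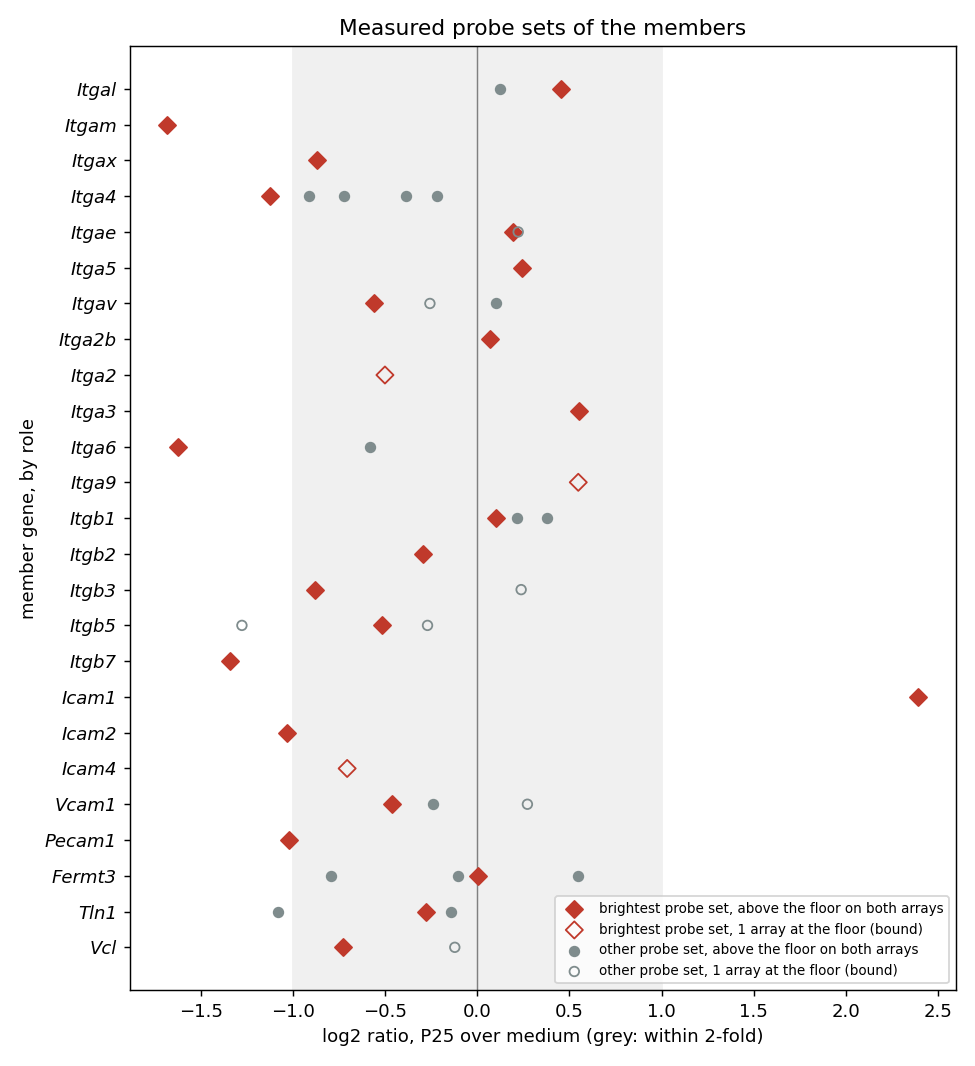
Log2 ratio of P25 over medium (horizontal axis) for each measured probe set of the 25 measured members; red diamonds are the brightest probe set of a gene, grey circles its other probe sets, open symbols are bounds with 1 array at the floor, and the grey band is the range within 2-fold. All 5 Itga4 probe sets lie left of 0, Itgav, Itgb3, Vcam1 and Fermt3 have probe sets on both sides, and Icam1 stands alone on the right at 2.39.

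Probe sets of the members disagreed to about the same degree as those of other genes. The members had 75 probe sets, of which 47 were above the floor on at least 1 array and 37 on both. In the 8 members that had such a pair, the difference had an SD of 0.57, beside 0.58 for all genes. Icam1, Itgam, Itgb7, Icam2 and Pecam1 each had 1 probe set, so no second reading exists for them. Restricted to the 13 members with a signal of at least 100 on both arrays, a choice made after the data were seen, 1 was at least 2-fold higher and 5 at least 2-fold lower, beside 9.46% and 5.32% of the 6404 genes as bright.

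The signalling genes around integrins were past 2-fold about as often as all measured genes, of which 9.43% were higher and 7.22% lower. Over the 3 lists together 5.26% of 57 measured genes were higher and 10.5% lower. Inside-out activation, by which other receptors switch integrins on through the GTPase RAP1, had 18 measured genes of 20 listed, with 1 at least 2-fold higher (5.56%) and 2 at least 2-fold lower (11.1%), and a median log2 ratio of -0.15. Rasgrp2, the RAP1 activator of lymphocytes and platelets, had 212.5 with P25 against 662 with medium, a log2 ratio of -1.64, and its 4 probe sets ran from -1.87 to -0.51. Fyb, the adaptor ADAP, had 63.5 with P25 against 151 with medium, a log2 ratio of -1.25, and its other probe set gave -1.17. Sipa1, which turns RAP1 off, had a log2 ratio of -0.96. The only gene of this list at least 2-fold higher was Adap1, an ARF6 GTPase regulator that is not the adaptor ADAP despite its symbol. Adap1 had 181 with P25 against 55.6 with medium, a log2 ratio of 1.71 on a single probe set. Without it no gene of the list was 2-fold higher, and the next highest were Itgb1bp1 (0.40) and Skap2 (0.36). Rap1a and Rap1b themselves had log2 ratios of 0.24 and -0.03.

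Focal adhesion and outside-in signalling, the scaffolds and kinases that act once an integrin has bound, had 25 measured genes of 30 listed, with 1 past 2-fold in each direction (4.0% each) and a median of -0.18. Both were bounds from dim probe sets, Src above the floor with P25 alone (25.5 with P25 against 2.9 with medium) and Tgfb1i1 with medium alone (2.2 with P25 against 21.6 with medium). Of the 20 genes over the floor on each array none was past 2-fold. The lowest were the kinase genes Fyn (-0.89) and Ptk2b (-0.86) and Flna (-0.81), which encodes the actin crosslinker filamin A. The highest were Actn4 (0.50), an actin crosslinker, Bcar1 (0.46) and Tns1 (0.27). The list of other integrin chains and ligands had 14 measured genes of 25, among which 1 was at least 2-fold higher (7.14%) and 3 were lower (21.4%), and their median was -0.19. Adam8 (-1.21), a surface protease, the basement membrane gene Nid1 (-1.17, with 3 probe sets from -2.13 to -1.16) and fibronectin, Fn1 (-1.07), were lowest. Ccn1 (0.48), Madcam1 (0.39) and Itga10 (0.36) were the highest of those over the floor on each array, all dim, and the laminin gene Lama5 was above it with P25 alone (24.5 with P25 against 3.1 with medium).

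**Figure D3:**
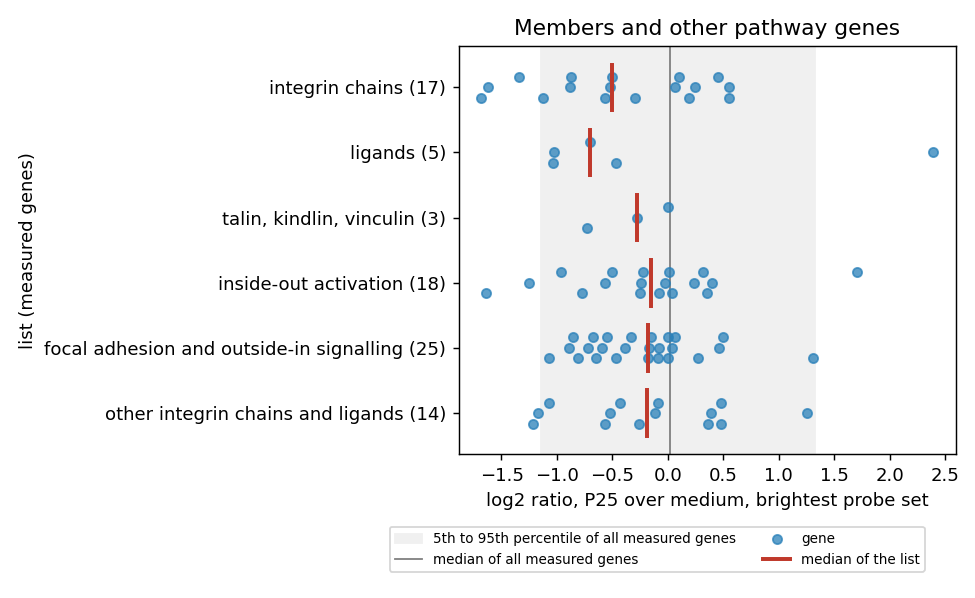
Log2 ratio of P25 over medium (horizontal axis) of each measured gene, as a point, for the members by role and for 3 lists of other pathway genes, with the number of measured genes in parentheses; red bars are list medians, the grey line and band are the median and the 5th to 95th percentile of all measured genes. The integrin chains have a median of -0.50 and the 3 other pathway lists of -0.15, -0.18 and -0.19, and Icam1 is the point at 2.39.

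Markers of several cell types also differed between the arrays, and their part in the integrin values was not tested. In the macrophage and monocyte list, 9 of 11 measured genes (81.8%) were 2-fold lower or more with P25, beside 7.22% of all measured genes. Of the 9, C1qb, Mertk and Ccr2 were above the floor with medium alone, so their ratios are bounds. The median log2 ratio of the 11 was -1.49, and the signal summed over the list was 586 with P25 against 1480.0 with medium. In the neutrophil list 8 of 10 measured genes (80.0%) were 2-fold lower or more, and the median was -1.17 and the sum 7001 with P25 against 12990.0 with medium. In the B cell list 3 of 10 (30.0%) were, and the median was -0.68 and the sum 21300.0 with P25 against 29860.0 with medium. C1qa and C1qc of the first list and Cxcr2 of the second were at the floor on both arrays. These stand beside Itgam, a chain of macrophages and neutrophils, and beside Itga4 and Itgb7, chains of lymphocytes. Among 8 measured conventional dendritic cell markers 2 were higher by this threshold, Zbtb46 (log2 ratio 2.517) and Ly75 (2.11). Another 3 were lower, Cadm1 (-1.455, a bound with P25 at the floor), Sirpa (-1.425) and Dpp4 (-1.006). The median was -0.75 and the sum 725 with P25 against 919 with medium, with Xcr1 at the floor on both arrays. Markers of this list thus went both ways, beside the -0.87 of Itgax. The 7 plasmacytoid dendritic cell markers had a median of -0.16 and a sum of 6166 with P25 against 4674 with medium. Irf8 made up most of that sum, with 4275 with P25 against 2939 with medium. By the same threshold 2 were higher (Bst2 and Klk1, 28.6%) and 2 lower (Siglech and Ccr9, 28.6%). Over all measured genes these shares were 9.43% and 7.22%.

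The T cell markers Cd3e, Cd3d and Cd4 were at the floor on both arrays. Of 13 on the list 7 were measured, 3 of them at least 2-fold lower (42.9%), beside 7.22% of all measured genes. The list sum was 489.5 with P25 against 1361 with medium. Cd3g was on the higher side, at 21.6 with P25 against 11.1 with medium (log2 ratio 0.96), and Trat1 exceeded the floor with P25 alone, at 13.7 with P25 against 3.0 with medium. Cd2 made up most of the list sum, with 339 with P25 against 1140 with medium, so the sum mainly follows this gene and not the list. Of the natural killer cell markers 4 of 6 on the array were measured, with a median of 0.20 (sum 105 with P25 against 61.3 with medium), and Ncr1 and Eomes were at the floor on both arrays. Platelet markers had 6 measured genes, a median of -0.24 (sum 145 with P25 against 195 with medium), and Gp1bb at the floor on both arrays. They stand beside Pecam1, Itga2b and Itgb3, which platelets also carry. Endothelial and stromal markers were near or at the floor, with Tie1, Col1a1, Col3a1, Pdgfrb and Dcn at it on both arrays, 5 measured genes and a sum over the list of 92.5 with P25 against 54.6 with medium. All 5 of those measured had log2 ratios above 0, from 0.11 to 0.87, of which 4 were bounds with the medium array at the floor, while Pecam1 and Icam2, which endothelium also carries, were lower. Of the erythroid markers Hba-a1, Klf1 and Alas2 were at the floor on both arrays, and Epor and Tfrc had log2 ratios of -0.40 and 1.31. The list sum of 1168 with P25 against 491 with medium was nearly all Tfrc, with 1133 with P25 against 458 with medium.

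**Figure D4:**
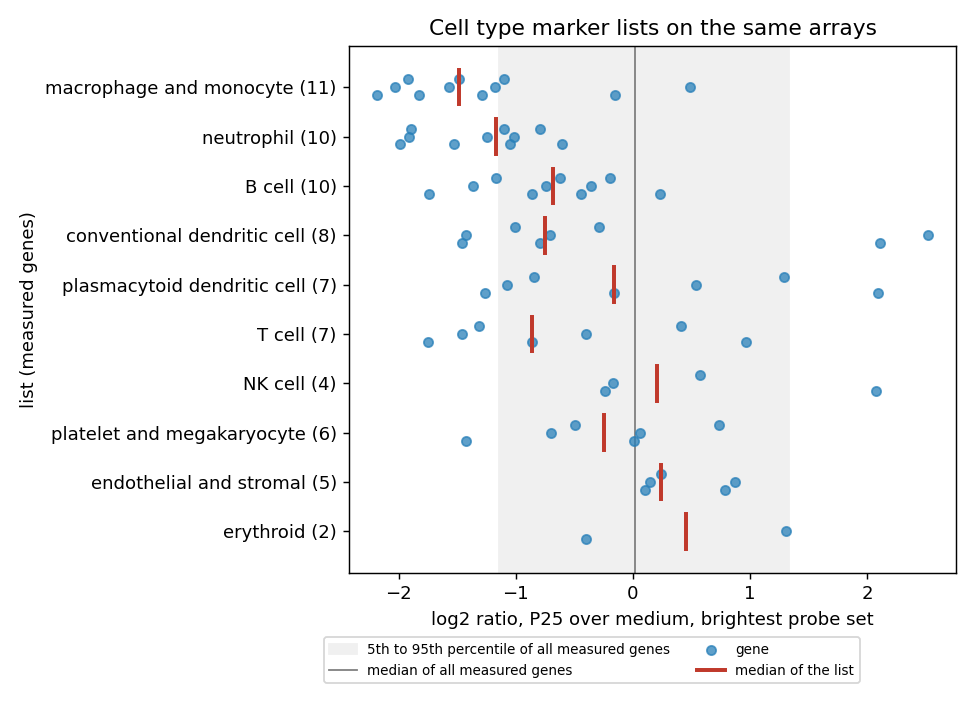
Log2 ratio of P25 over medium (horizontal axis) of each measured marker gene, as a point, in 10 cell type lists, with the number of measured genes in parentheses; red bars are list medians, the grey line and band are the median and the 5th to 95th percentile of all measured genes. The macrophage and neutrophil lists have medians of -1.49 and -1.17, and the endothelial and stromal genes lie right of 0.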

How the data were processed

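The deposited intensity of each of 45101 probe sets per array is a MAS5 signal from GCOS on a linear scale, per the submitters' processing notes, with 1 µg of total RNA labelled per the labels' protocols. For the scaling target and detection calls, nothing is stated in those sources. The 64 control probe sets were set aside. The remaining 45037 had median signals of 18.0 (P25) and 18.4 (medium), with 60.3% and 59.7% over the floor. Among them 34945 had 1 gene symbol, 932 several and 9160 none. Symbols were updated by Entrez number through RefSeq (GRCm38.p6), which matched 34741, and promoter windows are from RefSeq. Each gene was read from the probe set with the greatest mean log2 signal. Signals under the floor were set to it, so such ratios are bounds. A gene was counted at a ratio of at least 2 or at most 0.5, and no p-value was computed. The number of arrays limits the precision. A batch and the treatment cannot be told apart. Group labels came from the treatment field. Members and lists were chosen with earlier results of these data known. All members are named, with any pathway gene past 2-fold and, of each list, the 3 highest and 3 lowest genes over the floor on each array. Python 3.11.15, pandas 2.3.3, numpy 2.4.6 and matplotlib 3.10.9 were used, and the counting was tested on simulated data. Alternatives were other floors, a pseudocount, scalings and probe set rules.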

Additional observations from a re-analysis of the deposited data

How the results depend on the processing

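The count of members at least 2-fold higher was 1 (Icam1) and became 5 of 33 with the floor at the 20th percentile (a signal of 2.86). With that floor, genes at the main floor enter and Itga9 reached 2.40. The share higher over all genes rose as well, from 9.43% of 12897 to 14.7% of 16637. On second probe sets, which Icam1 lacks, the count was 0 of 12, beside 9.31% of 6175 genes. The count lower was 6. It became 3 under either planned scaling (one median over measured probe sets, or one spike-in level), 4 with the pseudocount of 16 (without Itgam at -0.94 and Pecam1 at -0.96), 5 with the floor at the 60th percentile, 5 with the median over probe sets (Itga4 at -0.72), and 2 (Itgb5 and Tln1) of the 12 genes with a measured second probe set. Over all genes the share lower was 7.22% in the main setting, and 5.05% and 4.93% under the planned scalings. That share was 4.47% with the pseudocount, 6.44% with the floor at the 60th percentile, 5.93% with the median over probe sets and 7.56% on second probe sets. The median of members, -0.50, was -0.31 with the floor at the 60th percentile (a signal of 38.6, which leaves 17 members and not Itgam), -0.29 with the pseudocount, -0.35 and -0.34 with those scalings, -0.30 with the median over probe sets and -0.11 on second probe sets. The 4 settings added after the data were seen (no _s_at or _x_at probe sets, genes above the floor on both arrays, genes at 100 or more, one median over all probe sets) gave 1 higher, 5 to 7 lower and medians of -0.53, -0.49, -0.56 and -0.49. Over all genes these 4 settings gave 9.38% to 10.0% higher and 5.32% to 7.46% lower. The planned scalings raised the share of calls that were higher, over all genes, to 71.0% and 71.6%, against 56.6% on the deposited scale, and the floor at the 20th percentile took the calls over all genes to 2438 higher and 1933 lower, against 1216 and 931. With the pseudocount they were 911 and 576 of 12897 genes. With the floor at the 60th percentile they were 908 and 591 of 9181. With median scaling they were 1623 and 664 of 13141, with spike-in scaling 1639 and 649 of 13154. Itga6 came to -0.58 and Itga4 to -0.91 on their second probe sets, and the causes were not tested. No paired analysis was possible because each group has 1 array.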
